A study of Homo sapiens with 12 samples.

Results

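The 54 genes described here encode the factors that start protein synthesis on messenger RNA (eukaryotic initiation factors, symbols EIF1 to EIF6) and those that carry it forward codon by codon (eukaryotic elongation factors, symbols EEF1 and EEF2). They were taken by symbol from a table of 30017 gene symbols, so the list also holds EEF2K, an inhibitor of eEF2, and EEF1E1, a tRNA synthetase scaffold. The pattern matched 68 symbols, and 14 were left out: the EIF2AK kinases and the EIF4EBP repressors of these factors, antisense names, pseudogenes, and symbols with fewer than 100 counts over the 12 libraries. RNA selected for polyA tails was sequenced from THP-1, a human line derived from monocytic acute myeloid leukaemia. Both genotypes had been electroporated with Cas9, and a guide RNA against IRAK4 was added for the knockout. IRAK4 knockout cells (IRAK4KO) under 50 nM CC-885 for 12 h, the same knockout cells under DMSO, wild-type cells (WT) under CC-885 and WT cells under DMSO were the 4 groups, with 3 libraries each. CC-885 is a small molecule that recruits the translation termination factor GSPT1 to the cereblon ubiquitin ligase, which marks it for degradation. Cells of both genotypes were grown out from single cells and checked by PCR and Sanger sequencing, but the number of clones behind either genotype is not stated, so the effect of the knockout and a difference between clones cannot be told apart. It is also not stated whether the 3 libraries of a group came from separate cultures, and the p-values measure only the spread between these libraries.

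Initiation begins when eIF2, a trimer of alpha, beta and gamma subunits, delivers the initiator tRNA to the small ribosomal subunit. The factors eIF1, eIF1A and eIF5 then control which start codon is accepted, the large scaffold eIF3 holds the complex together, and the cap-binding eIF4 factors recruit the mRNA. The exchange factor eIF2B recharges eIF2 with GTP and is blocked when kinases of the integrated stress response phosphorylate the alpha subunit. Elongation then depends on eEF1A, which brings each charged tRNA, on the eEF1B complex, which recharges eEF1A, and on eEF2, which moves the ribosome by a codon and is inhibited by the kinase eEF2K. Many elongation factor mRNAs carry a terminal oligopyrimidine (TOP) tract at the 5′ end, a feature that couples them to growth signalling.

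The bases before the annotated start of 4 genes are shown because those genes turned out to mark the extremes of the response: EIF1 and EIF5 at the top, EEF1A1 and EEF2K at the bottom. Each sequence is the 250 bases ahead of the RefSeq start on GRCh38.p14, read 5′ to 3′ on the strand of the gene. They are chr17:41688635-41688884 on the plus strand for EIF1, chr14:103333987-103334236 on the plus strand for EIF5, chr6:73521033-73521282 on the minus strand for EEF1A1 and chr16:22206028-22206277 on the plus strand for EEF2K. Capitals mark the E-box CACGTG, the sequence that MYC with MAX and related factors bind.
EIF1: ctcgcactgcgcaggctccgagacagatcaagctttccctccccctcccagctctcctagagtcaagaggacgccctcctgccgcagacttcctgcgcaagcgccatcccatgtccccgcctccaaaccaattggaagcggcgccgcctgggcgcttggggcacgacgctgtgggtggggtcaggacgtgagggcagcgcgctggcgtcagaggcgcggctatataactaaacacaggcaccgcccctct
EIF5: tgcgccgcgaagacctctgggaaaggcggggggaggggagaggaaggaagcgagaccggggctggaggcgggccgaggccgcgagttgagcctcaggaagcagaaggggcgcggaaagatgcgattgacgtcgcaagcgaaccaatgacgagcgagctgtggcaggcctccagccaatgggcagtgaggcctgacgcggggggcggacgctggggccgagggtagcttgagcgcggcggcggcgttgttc
EEF1A1: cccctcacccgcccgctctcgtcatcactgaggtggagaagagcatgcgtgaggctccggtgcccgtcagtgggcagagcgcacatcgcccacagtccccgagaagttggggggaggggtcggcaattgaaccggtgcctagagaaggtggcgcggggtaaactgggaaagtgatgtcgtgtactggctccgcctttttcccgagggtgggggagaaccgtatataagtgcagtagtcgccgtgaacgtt
EEF2K: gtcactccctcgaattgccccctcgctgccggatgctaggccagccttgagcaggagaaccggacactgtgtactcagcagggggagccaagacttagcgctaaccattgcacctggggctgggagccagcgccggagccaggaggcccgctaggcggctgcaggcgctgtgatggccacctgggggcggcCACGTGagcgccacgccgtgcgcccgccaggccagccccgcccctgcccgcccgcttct
For EIF5 and EEF1A1 the RefSeq start lies inside the longer span that GENCODE v29 gives the gene. Of these 4 sequences, the 1 from EEF2K holds CACGTG, beginning 59 bases before the start. RefSeq promoter windows, which run on a short way past the start, were found for 45 of the 54 genes (61 windows, since some genes have several starts), and a gene was counted if any of its windows held the motif. EIF5 has a second window further downstream that is not printed. CACGTG, which reads the same on both strands, lay in the windows of 11 of the 45 genes (24.44%), against 8.775% of 27305 symbols with a window and 12.37% of the 10770 such symbols that were tested here. The 11 genes were EEF2K, EIF1B, EIF2B3, EIF3F, EIF3K, EIF4A3, EIF4B, EIF4E, EIF4G1, EIF4H and EIF5A2. The element TGATGNAA, a motif bound by ATF4 with CEBP partners, was searched on both strands and found in the window of EIF4E3 alone among the 45 (2.222%, against 4.457% of all symbols with a window and 2.897% of those tested here). These matches describe letters in a window, not binding.

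Libraries held between 46903984 and 56675539 counts, and 16010 symbols (53.3%), holding 99.98% of all counts, passed the filter on low counts. All 54 factor genes passed it. Levels below are CPM, the usual depth-normalised read counts, taken on library totals scaled by TMM factors (a trimmed-mean scaling that centres changes on the bulk of genes). IRAK4, the gene targeted by the guide, measured 31.7, 30.7 and 29.6 CPM in IRAK4KO libraries under CC-885, 7.28, 8.72 and 8.78 CPM in IRAK4KO libraries under DMSO, 65.4, 69.4 and 83.6 CPM in WT libraries under CC-885 and 53.9, 50.9 and 51.6 CPM in WT libraries under DMSO. Under DMSO it was lower in IRAK4KO at -2.66 ± 0.10 on the log2 scale (SE). All 10 monocytic markers were counted in every library, with summed levels of 1228 to 1245 CPM in IRAK4KO under CC-885, 3012 to 3923 CPM in IRAK4KO under DMSO, 1677 to 1768 CPM in WT under CC-885 and 2663 to 2722 CPM in WT under DMSO. Of 6 T and NK cell markers at most 2 were counted in every library of a group. Summed markers of T and NK cells reached at most 20.8 CPM, those of B cells 3.39 CPM and those of the erythroid line 0.673 CPM. A list of epithelial, stromal and endothelial markers, which contains PECAM1, a gene that monocytes also express, spanned 91.8 to 459 CPM. The part of these marker shifts in the results below was not tested. WT replicate 3 under CC-885 stood apart: the chi-square of its counts, divided by the degrees of freedom, was 77.4 and 63.1 against the other members of its group, where replicates 1 and 2 gave 5.14 and pairs in the other groups 4.13 to 21.2. Results that rest on it are given with and without it.

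**Figure D1:**
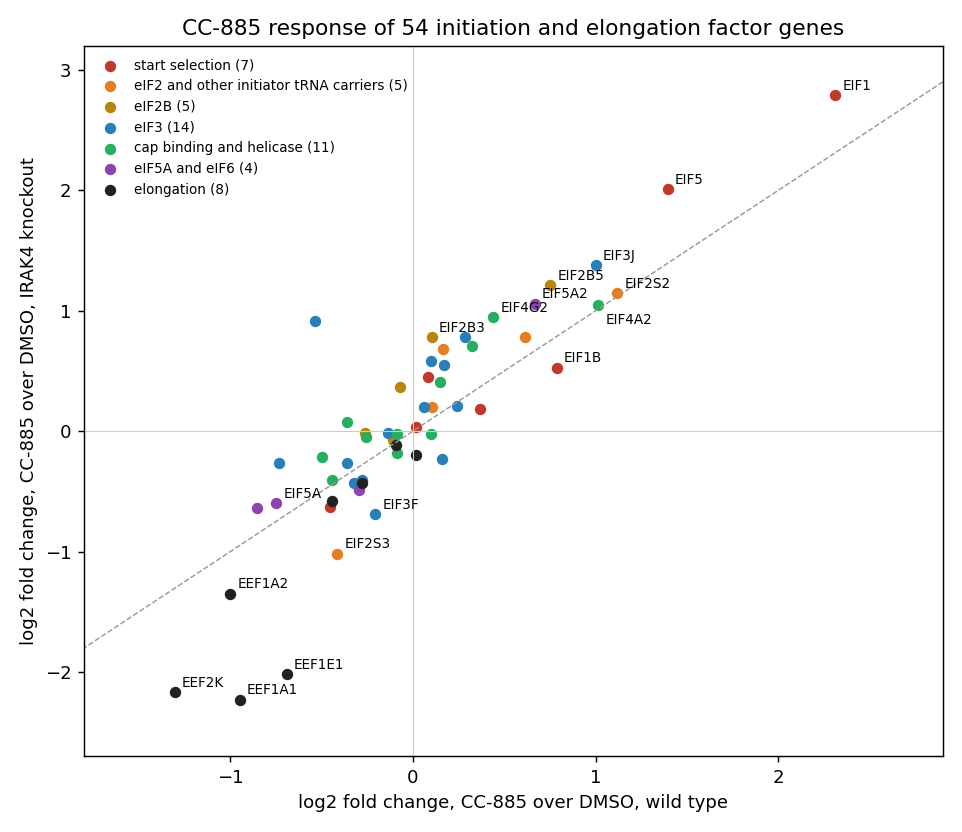
Log2 fold change under CC-885 against DMSO for the 54 factor genes, in WT (horizontal axis) and in IRAK4KO (vertical axis). Each point is a gene, coloured by role. The dashed line marks equal change in both genotypes, and EIF1 (2.31 in WT) and EEF2K (-1.30 in WT) lie at the 2 ends along the horizontal axis.

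In WT cells under CC-885, EIF1 and EIF5, which police the choice of start codon, rose most, while EEF2K, EEF1A2 and EEF1A1 of the elongation group fell most among genes at 5 CPM or more. Of the 54 genes, 14 were called higher and 19 lower in CC-885 than in DMSO (edgeR quasi-likelihood test, Benjamini-Hochberg adjusted p under 0.05 over all genes tested), against 35.7% of all tested genes called higher and 36.6% lower (72.3% in either direction). The 46 genes with EIF symbols, called initiation genes here, held 14 of these calls upward and 14 downward. The 8 genes with EEF symbols, called elongation genes, held 0 upward and 5 downward. The split follows the symbols, so EIF5A, EIF5A2 and EIF5AL1 are counted with initiation. No test set initiation genes against elongation genes. Without WT replicate 3 under CC-885 the counts were 14 and 21. Leaving out any 1 library gave 10995 to 11842 calls over all tested genes, beside 11575 with all libraries. The median log2 fold change of the 54 was -0.08, beside -0.03 over all tested genes. A change of 2-fold or more was reached by 5 genes upward and 1 downward, where the shares over all tested genes were 16.6% and 12.7% (29.3% in either direction). These counts hold genes at the threshold. EIF3J (1.00) and EIF4A2 (1.02) went as low as 0.85 and 0.92 among the alternative fits. EEF1A2 (-0.999) and EEF1A1 (-0.95) went as low as -1.07 and -1.18. Without WT replicate 3 under CC-885, EEF1E1 was called at -1.25. Fewer cells of a type and less RNA per cell cannot be told apart in these bulk libraries. Because changes are relative, all statements of higher and lower hold against the bulk of transcripts.

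In IRAK4KO cells the same contrast, CC-885 against DMSO, gave 22 genes higher and 19 lower, against 38.9% and 40.0% of all tested genes (78.9% in either direction). With upper-quartile scaling, which moved the median of all genes by -0.15, the split was 19 higher and 25 lower. The median log2 fold change was -0.01 for the 54 genes and -0.03 over all tested genes. At least 2-fold changes numbered 7 upward and 5 downward (21.5% and 20.2% of all tested genes, 41.6% in either direction). The 2 contrasts use no library in common. All 14 genes called higher in WT were among the 22 called higher in IRAK4KO, and 16 of the 19 called lower in WT were among the 19 called lower in IRAK4KO. No gene was called in opposite directions in the 2 genotypes. The same overlap was not counted over all tested genes, so it cannot be called particular to these 54.

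EIF1 encodes the small factor that keeps the scanning ribosome from settling on a wrong codon (chromosome 17, 41688885 to 41692668, plus strand, GRCh38). Its level was 1413, 1459.6 and 1513 CPM in IRAK4KO under CC-885, against 219.8, 213 and 201 CPM in IRAK4KO under DMSO. In WT it was 1278, 1236 and 1299 CPM under CC-885, against 254, 254 and 258 CPM under DMSO. No treated library came near an untreated one in either genotype. EIF1 rose by 2.79 ± 0.06 in log2 fold change (SE) in IRAK4KO (6.91-fold, adjusted p = 1.05e-15) and by 2.31 ± 0.06 in WT (4.97-fold, adjusted p = 1.23e-14).

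EIF5 encodes the GTPase-activating protein that makes eIF2 hydrolyse its GTP at the start codon (chromosome 14, 103333544 to 103345025, plus strand). IRAK4KO libraries held 1104, 1106 and 1081 CPM under CC-885, against 255, 288 and 275 CPM under DMSO. WT libraries held 830.2, 837 and 879 CPM under CC-885, against 317, 329 and 321 CPM under DMSO. The 4 groups did not overlap. EIF5 rose by 2.01 ± 0.06 in IRAK4KO (4.03-fold, adjusted p = 3.44e-14) and by 1.40 ± 0.06 in WT (2.63-fold, adjusted p = 3.74e-12). The EIF1 and EIF5 windows printed above lack CACGTG.

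EIF1B, a close relative of EIF1, rose by 0.53 ± 0.08 in IRAK4KO (adjusted p = 1.9e-05) and by 0.79 ± 0.08 in WT (adjusted p = 2.49e-07). On the scale of log2 counts, the EIF1B to EIF1 ratio was -5.67 ± 0.09 in IRAK4KO under CC-885, -3.41 ± 0.09 in IRAK4KO under DMSO, -5.10 ± 0.09 in WT under CC-885 and -3.57 ± 0.08 in WT under DMSO (SD, n = 3 each). Treated and untreated ratios did not overlap in either genotype. Of the 7 start-selection genes, 4 were called higher and 1 lower in IRAK4KO (38.9% and 40.0% of all tested genes). In WT, 3 were called higher and 1 lower (35.7% and 36.6%). EIF1AD, a nuclear relative of eIF1A by sequence, was the gene called lower in both. The additional rise in IRAK4KO was EIF5B, the GTPase that joins the ribosomal subunits, at 0.45 ± 0.06 (adjusted p = 8.29e-06), where WT gave 0.08 ± 0.06 (adjusted p = 0.265). EIF1AX and its near-identical copy on the Y chromosome were not called in either genotype, and how reads were divided between the copies is not stated.

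**Figure D2:**
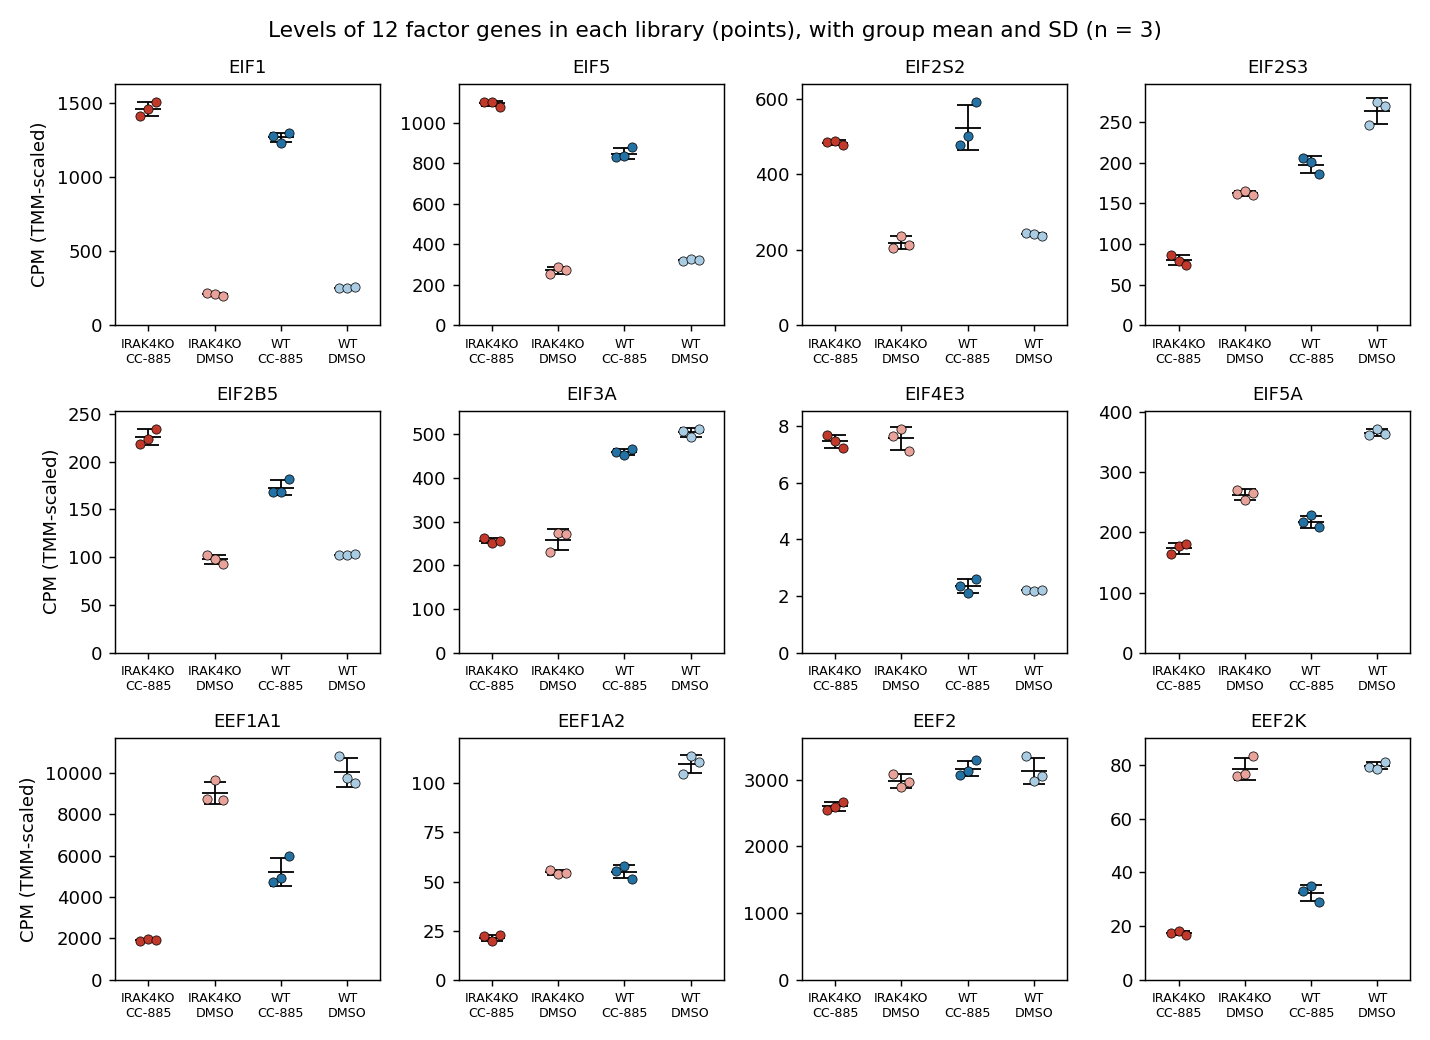
Level of 12 factor genes in each of the 12 libraries, in TMM-scaled CPM on linear axes starting at 0. Points are libraries, and the line with whiskers is the group mean with its SD (n = 3). EIF1 and EIF5 stand higher under CC-885 in both genotypes and EEF1A1 and EEF2K stand lower, while EIF3A and EIF4E3 separate by genotype.

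The 3 subunits of eIF2 did not move together under CC-885. EIF2S2, the beta subunit that contacts eIF5 and eIF2B (chromosome 20, 34088298 to 34112332, minus strand), rose in both genotypes. EIF2S3, the gamma subunit that binds GTP and the initiator tRNA (chromosome X, 24054716 to 24077971, plus strand), fell in both. EIF2S1, the alpha subunit that stress kinases phosphorylate (chromosome 14, 67359997 to 67386516, plus strand), was called higher in IRAK4KO.

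EIF2S2 measured 486, 488 and 476 CPM in IRAK4KO under CC-885, against 205, 238 and 212 CPM in IRAK4KO under DMSO. WT values were 478, 501 and 592 CPM under CC-885, against 244, 242 and 237 CPM under DMSO. The treated levels of the 2 genotypes overlapped, and the rises were 1.15 ± 0.08 in IRAK4KO (adjusted p = 6.68e-10) and 1.12 ± 0.08 in WT (adjusted p = 1.46e-09). EIF2S3 measured 87.0, 79.8 and 74.2 CPM in IRAK4KO under CC-885, against 162, 166 and 159.8 CPM under DMSO. In WT it measured 206, 201 and 187 CPM under CC-885, against 246, 275 and 269.7 CPM under DMSO. All 4 groups were separate, the changes being -1.02 ± 0.07 in IRAK4KO (adjusted p = 6.15e-10) and -0.41 ± 0.07 in WT (adjusted p = 3.11e-05).

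EIF2S1 stood at 185, 189 and 187 CPM in IRAK4KO under CC-885, against 109.8, 124 and 117 CPM under DMSO, a rise of 0.68 ± 0.08 (adjusted p = 5.89e-07). In WT it stood at 153, 151 and 189 CPM under CC-885, against 141, 153 and 146 CPM under DMSO, and its log2 fold change of 0.17 ± 0.08 was not called (adjusted p = 0.0635). The WT groups overlapped. It was called in WT at 0.22 without WT replicate 1 under CC-885 (adjusted p = 0.0277) and at 0.22 without replicate 2 of that group (adjusted p = 0.0274), and it stood at 0.05 without replicate 3. Library names in the labels open with 51 or 52 and end in a number of their own, with no meaning given. The prefix 52 marks IRAK4KO replicate 3 under DMSO, WT replicate 3 under CC-885 and WT replicates 2 and 3 under DMSO. Prefix and group are thus not balanced, and the prefix 51 libraries alone keep only replicate 1 of WT under DMSO. EIF2S1 was also called in WT at 0.21 with the library-name prefix as a covariate (adjusted p = 0.00930) and at 0.19 with no low-count filter (adjusted p = 0.0345). EIF2A, an alternative carrier of initiator tRNA, rose by 0.78 ± 0.14 in IRAK4KO (adjusted p = 0.000251) and by 0.61 ± 0.14 in WT (adjusted p = 0.00178). The WT value was 0.37 without replicate 3 under CC-885, which held 272 CPM where the other replicates of its group held 174 CPM each.

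Of the 5 eIF2B subunits, 3 were called higher and 0 lower in IRAK4KO under CC-885 (38.9% and 40.0% of all tested genes). In WT, 1 was called higher and 1 lower (35.7% and 36.6%). EIF2B5, the catalytic epsilon subunit (chromosome 3, 184135038 to 184146112, plus strand), moved furthest. It measured 219, 224 and 235 CPM in IRAK4KO under CC-885, against 102, 98.1 and 92.3 CPM under DMSO, and 169, 168 and 181 CPM in WT under CC-885, against 102, 102 and 103 CPM under DMSO. The untreated genotypes overlapped and the treated ones did not. EIF2B5 rose by 1.21 ± 0.06 in IRAK4KO (adjusted p = 8.52e-12) and by 0.75 ± 0.06 in WT (adjusted p = 5.04e-09). EIF2B3, the gamma subunit, measured 57.2, 57.2 and 60.03 CPM in IRAK4KO under CC-885, against 33.7, 35.4 and 32.5 CPM under DMSO, a rise of 0.78 ± 0.07 (adjusted p = 1.54e-08). In WT it measured 50.7, 51.0 and 57.9 CPM under CC-885, against 49.1, 50.7 and 48.8 CPM under DMSO, with a log2 fold change of 0.10 ± 0.07 (adjusted p = 0.169). EIF2B4, the delta subunit, was the remaining rise in IRAK4KO, at 0.37 ± 0.07 (adjusted p = 0.000101), and EIF2B1, the alpha subunit, was the fall in WT, at -0.26 ± 0.06 (adjusted p = 0.000685).

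Members of eIF3, the scaffold that bridges the small subunit and the cap complex, split in both directions under CC-885. Of 14 eIF3 symbols, 6 were called higher and 4 lower in IRAK4KO (38.9% and 40.0% of all tested genes). In WT, 4 were called higher and 4 lower (35.7% and 36.6%). EIF3J, a loosely attached subunit that acts on ribosome binding and recycling (chromosome 15, 44537057 to 44563029, plus strand), rose most. Its level was 242, 245 and 234 CPM in IRAK4KO under CC-885, against 81.5, 95.7 and 100.4 CPM under DMSO, and 206, 208 and 278 CPM in WT under CC-885, against 106, 124 and 115 CPM under DMSO. EIF3J rose by 1.38 ± 0.11 in IRAK4KO (adjusted p = 2.93e-08) and by 1.00 ± 0.11 in WT (adjusted p = 1.2e-06), with no overlap of treated and untreated libraries. EIF3I, EIF3D and EIF3H were called higher in both genotypes, and EIF3G and EIF3M in IRAK4KO. The EIF3M change (0.20, adjusted p = 0.0279) lost its call without IRAK4KO replicate 1 (0.18) or 3 (0.19) under DMSO and without IRAK4KO replicate 1 (0.21), 2 (0.19) or 3 (0.20) under CC-885. It was lost too with upper-quartile factors (0.051), with library size only (0.10) and with no low-count filter (0.14). The EIF3H call in IRAK4KO was lost with upper-quartile factors (0.065), library size only (0.11) and no low-count filter (0.15). In WT the EIF3H call was lost with the library-name number as a block (0.17), and EIF3H stood at 0.11 in the prefix 51 libraries alone. The EIF3D call in WT was lost with upper-quartile factors (0.098), library size only (0.11) and the library-name number as a block (0.15). In the prefix 51 libraries alone EIF3D stood at 0.16 in WT. EIF3B, EIF3F, EIF3K and EIF3L were called lower in both.

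EIF3F showed the largest fall of the complex in IRAK4KO. It measured 103, 107 and 108 CPM in IRAK4KO under CC-885, against 179, 173 and 162 CPM under DMSO, a change of -0.69 ± 0.08 (adjusted p = 1.34e-06). In WT it measured 139, 132 and 109.9 CPM under CC-885, against 163, 139 and 138 CPM under DMSO, and the groups overlapped. The WT change of -0.21 ± 0.08 (adjusted p = 0.0377) was no longer called without WT replicate 3 under CC-885 (-0.11, adjusted p = 0.149) or without WT replicate 1 under DMSO (-0.13, adjusted p = 0.204). That call was also lost with DESeq2 (-0.20, adjusted p = 0.0510), with no low-count filter (-0.18, adjusted p = 0.0639) and with only the groups compared (-0.19, adjusted p = 0.119). EIF3A, the largest subunit, was not called in either genotype with TMM scaling: its log2 fold change was -0.01 ± 0.06 in IRAK4KO (adjusted p = 0.860) and -0.13 ± 0.06 in WT (adjusted p = 0.0626). The WT value of EIF3A was called without WT replicate 3 under CC-885 (-0.15, adjusted p = 0.0499) and without IRAK4KO replicate 1 under DMSO (-0.13, adjusted p = 0.0181). With upper-quartile factors EIF3A was called lower in both genotypes, at -0.16 in IRAK4KO (adjusted p = 0.0232) and -0.21 in WT (adjusted p = 0.00584), and with library size only it was called in WT (-0.19, adjusted p = 0.0114).

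EIF3E was named after its values were seen, because a single library decided it. It measured 505, 532 and 1244 CPM in WT under CC-885, against 676, 638 and 729 CPM in WT under DMSO. The log2 fold change was 0.16 ± 0.31 with all libraries (adjusted p = 0.660) and -0.39 without WT replicate 3 under CC-885 (adjusted p = 0.00194). In IRAK4KO it was -0.24 with all libraries and, called, -0.23 without that WT library (adjusted p = 0.0219), which enters the shared estimate of spread. EIF3C and EIF3CL are near-identical copies, and their counts shifted between the copies from library to library. EIF3C read 68.8, 13.8 and 15.03 CPM in WT under DMSO, where EIF3CL read 2.59, 16.1 and 2.99 CPM. Neither was called in any comparison with all libraries. Without WT replicate 1 under DMSO, EIF3C was called between genotypes under DMSO (1.33, adjusted p = 0.0317). With both summed to a single row the WT response was -0.69 (adjusted p = 0.182), an alternative chosen after seeing the data.

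**Figure D3:**
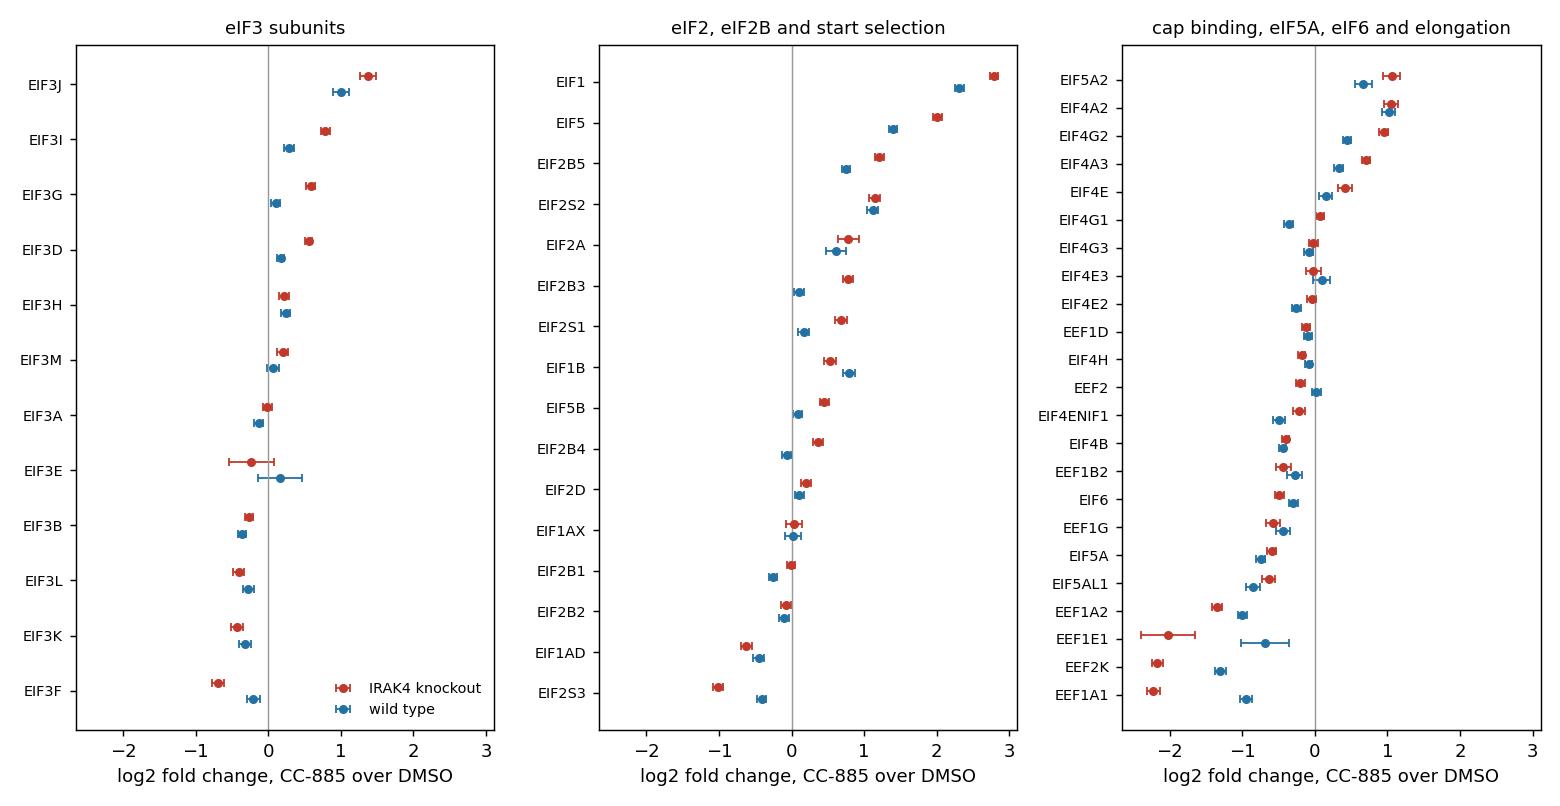
Log2 fold change (points) with SE (whiskers) under CC-885 against DMSO for 51 factor genes in IRAK4KO (red) and WT (blue), ordered by the IRAK4KO value in each panel. EIF3C, EIF3CL and EIF1AY are not drawn. EIF1 lies highest and EEF1A1 lowest by the IRAK4KO value, and eIF3 subunits spread from EIF3J at 1.38 to EIF3F at -0.69 in IRAK4KO.

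Among the 11 measured genes of cap binding and mRNA unwinding, 4 were called higher and 3 lower in IRAK4KO under CC-885. Of all tested genes, 38.9% and 40.0% were. In WT, 3 were called higher and 4 lower (35.7% and 36.6% of all tested genes). EIF4A2, an RNA helicase of the cap complex (chromosome 3, 186783205 to 186789900, plus strand), measured 395, 374 and 377 CPM in IRAK4KO under CC-885, against 189, 208 and 155 CPM under DMSO, and 351, 334 and 409 CPM in WT under CC-885, against 176, 187 and 178 CPM under DMSO. It rose by 1.05 ± 0.09 in IRAK4KO (adjusted p = 3.79e-08) and by 1.02 ± 0.09 in WT (adjusted p = 8.18e-08). Its paralog EIF4A1 is listed at 0 counts in all 12 libraries, and the read-through symbol SENP3-EIF4A1 holds 207 counts in all. In the GENCODE v29 annotation, 1586 of the 5316 exon bases of EIF4A1 (29.83%) are shared with that read-through. The level of EIF4A1 was therefore not analysed here, and the planned ratio of EIF4A2 to EIF4A1 could not be computed.

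The scaffold genes EIF4G1 and EIF4G2 moved apart. EIF4G2, a relative that lacks the binding site for the cap protein eIF4E, rose by 0.95 ± 0.06 in IRAK4KO (adjusted p = 2.56e-10) and by 0.44 ± 0.06 in WT (adjusted p = 4.12e-06). EIF4G1, the main scaffold of the cap complex, stood at 969, 979.9 and 991 CPM in IRAK4KO under CC-885, against 898, 930.3 and 965 CPM under DMSO (0.07 ± 0.06, adjusted p = 0.260). In WT it stood at 879.7, 869 and 868 CPM under CC-885, against 1046, 1112 and 1204 CPM under DMSO, a change of -0.36 ± 0.06 (adjusted p = 4.03e-05). As a ratio chosen after the values were seen, log2 EIF4G2 to EIF4G1 was 0.80 ± 0.03 in IRAK4KO under CC-885, -0.08 ± 0.03 in IRAK4KO under DMSO, 0.74 ± 0.02 in WT under CC-885 and -0.06 ± 0.09 in WT under DMSO (SD, n = 3 each). EIF4E, the cap-binding protein, was called higher in IRAK4KO (0.41 ± 0.09, adjusted p = 0.000937) and not in WT (0.15 ± 0.09, adjusted p = 0.171). With the library-name prefix as a covariate the WT response of EIF4E was called (0.21, adjusted p = 0.0126). EIF4B, which stimulates the helicase, was called lower in both genotypes, and EIF4A3, a helicase of the exon junction complex despite its name, was called higher in both. EIF4ENIF1, the nuclear transporter of eIF4E, fell by 0.21 ± 0.08 in IRAK4KO (adjusted p = 0.0270) and fell by 0.50 ± 0.08 in WT (adjusted p = 5.7e-05). The IRAK4KO call of EIF4ENIF1 was lost without IRAK4KO replicate 3 under DMSO (-0.19) and without replicate 1 (-0.19) or 2 (-0.21) of IRAK4KO under CC-885.

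The pair EIF5A and EIF5A2 moved in opposite directions. EIF5A, the hypusine-bearing factor that helps the ribosome past difficult peptide bonds (chromosome 17, 7306999 to 7312463, plus strand), measured 163, 178 and 181 CPM in IRAK4KO under CC-885, against 271, 253 and 265 CPM under DMSO. In WT it measured 217, 228 and 208 CPM under CC-885, against 361, 373 and 364 CPM under DMSO. The 4 groups did not overlap, and the changes were -0.60 ± 0.06 in IRAK4KO (adjusted p = 6.5e-08) and -0.75 ± 0.06 in WT (adjusted p = 5.84e-09). EIF5A2, its paralog, measured 23.9, 24.0 and 22.0 CPM in IRAK4KO under CC-885, against 10.3, 11.5 and 11.7 CPM under DMSO, and 15.2, 15.9 and 20.6 CPM in WT under CC-885, against 9.28, 12.1 and 11.1 CPM under DMSO. It rose by 1.06 ± 0.12 in IRAK4KO (adjusted p = 4.34e-07) and by 0.67 ± 0.12 in WT (adjusted p = 9.5e-05). The log2 ratio of EIF5A2 to EIF5A was -2.90 ± 0.13 in IRAK4KO under CC-885, -4.56 ± 0.14 in IRAK4KO under DMSO, -3.67 ± 0.29 in WT under CC-885 and -5.09 ± 0.18 in WT under DMSO (SD, n = 3 each). EIF5AL1, a copy of EIF5A whose reads may not be separable from it, fell by 0.64 ± 0.09 in IRAK4KO and fell by 0.85 ± 0.09 in WT. EIF6, which keeps the ribosomal subunits apart, was called lower in both genotypes.

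Genes of the elongation group were called lower or not at all under CC-885. The group was drawn by symbol and includes EEF2K, an inhibitor of eEF2, and EEF1E1, a scaffold of the tRNA synthetase complex. It leaves out EIF5A and its paralog EIF5A2, and EIF5A2 was called higher in both genotypes. Of the 8 genes, 0 were called higher and 7 lower in IRAK4KO (38.9% and 40.0% of all tested genes). In WT, 0 were called higher and 5 lower (35.7% and 36.6%). EEF1A1, the main eEF1A gene (chromosome 6, 73515750 to 73523797, minus strand), measured 1887, 1957 and 1936 CPM in IRAK4KO under CC-885, against 8754, 9640.4 and 8701 CPM under DMSO. In WT it measured 4713, 4916 and 5961 CPM under CC-885, against 10819, 9754 and 9497 CPM under DMSO. Under CC-885 the highest IRAK4KO library lay far below the lowest WT library, while under DMSO the genotypes overlapped. EEF1A1 fell by 2.23 ± 0.09 in IRAK4KO (0.213 of the DMSO level, adjusted p = 1.1e-12) and fell by 0.95 ± 0.08 in WT (0.518 of the DMSO level, adjusted p = 4.47e-08).

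EEF2K, the calcium-dependent kinase that inhibits eEF2 (chromosome 16, 22206282 to 22288732, plus strand), measured 17.6, 18.1 and 16.7 CPM in IRAK4KO under CC-885, against 75.8, 76.7 and 83.5 CPM under DMSO. WT libraries measured 33.0, 35.0 and 28.9 CPM under CC-885, against 79.4, 78.6 and 81.2 CPM under DMSO. As with EEF1A1, the genotypes overlapped under DMSO and were separate under CC-885. EEF2K fell by 2.17 ± 0.08 in IRAK4KO (adjusted p = 2.68e-13) and fell by 1.30 ± 0.07 in WT (adjusted p = 1.48e-10). Its target EEF2, the translocase (chromosome 19, 3976056 to 3985469, minus strand), measured 2537, 2588 and 2663 CPM in IRAK4KO under CC-885, against 3085, 2885 and 2964 CPM under DMSO, a change of -0.20 ± 0.06 (adjusted p = 0.00766). In WT it measured 3069.5, 3131 and 3288 CPM under CC-885, against 3354, 2973 and 3054 CPM under DMSO (0.02 ± 0.06, adjusted p = 0.820).

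EEF1A2, the eEF1A paralog known from muscle and neurons, measured 22.1, 19.7 and 22.6 CPM in IRAK4KO under CC-885, against 56.1, 53.9 and 54.2 CPM under DMSO, and 55.6, 57.8 and 51.4 CPM in WT under CC-885, against 105, 114 and 111 CPM under DMSO. Untreated IRAK4KO and treated WT thus had overlapping levels. EEF1A2 changed by -1.35 ± 0.07 in IRAK4KO (adjusted p = 2.53e-11) and by -0.999 ± 0.067 in WT (adjusted p = 1.24e-09). Of the eEF1B exchange complex, EEF1G fell by 0.58 ± 0.10 in IRAK4KO (adjusted p = 5.12e-05) and fell by 0.44 ± 0.10 in WT (adjusted p = 0.000692). EEF1B2 fell by 0.43 ± 0.11 in IRAK4KO (adjusted p = 0.00166) and fell by 0.28 ± 0.11 in WT (adjusted p = 0.0278), with overlapping groups in WT. The WT value of EEF1B2 was -0.42 without WT replicate 3 under CC-885, and its call was lost without replicate 1 (-0.20) or 2 (-0.23) of that group or without WT replicate 1 under DMSO (-0.21). EEF1D, a further subunit, was not called in either genotype with all libraries. In IRAK4KO it was called without IRAK4KO replicate 3 under DMSO (-0.15) or WT replicate 3 under CC-885 (-0.12). EEF1E1, a scaffold protein of the tRNA synthetase complex whose gene had only 1756 counts in all and shares exon bases with a read-through, measured 0.699, 0.877 and 1.20 CPM in IRAK4KO under CC-885, against 3.30, 3.18 and 4.73 CPM under DMSO. It fell by 2.02 ± 0.37 there (adjusted p = 0.000346), and in WT it stood at -0.69 ± 0.33 with all libraries (adjusted p = 0.0800) and at -1.25 without WT replicate 3 under CC-885 (adjusted p = 4.53e-05).

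The TOP list, written from general knowledge, held 9 of these genes. Under CC-885, 1 of the 9 was called higher and 6 lower in IRAK4KO (median -0.40), and 1 was called higher and 5 lower in WT (median -0.21). The gene called higher was EIF3H in both genotypes. The list was chosen with earlier results of these data known. Over all tested genes the shares called were 38.9% higher and 40.0% lower in IRAK4KO, and 35.7% higher and 36.6% lower in WT. Of the genes with CACGTG in the promoter window, 5 of 11 were called higher and 5 lower in IRAK4KO, and 3 were called higher and 5 lower in WT. Among the 34 without it, 14 were called higher and 12 lower in IRAK4KO, and 9 were called higher and 12 lower in WT.

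As shares of the library total, the 46 initiation genes summed higher and the elongation genes lower under CC-885. The initiation sum includes EIF1 and EIF5, and its rise was not shared by every role. In WT the start selection genes that hold them rose from 0.0985% under DMSO to 0.247% under CC-885. The eIF3 sum and the cap binding sum stayed near their DMSO level in WT, and the eIF5A and eIF6 sum fell, as given below. Initiation genes took 1.27 ± 0.01% of counts in IRAK4KO under CC-885, against 0.961 ± 0.019% under DMSO, and 1.23 ± 0.03% in WT under CC-885, against 1.07 ± 0.01% under DMSO (SD, n = 3 each). EEF1A1 alone took 0.188 ± 0.003% in IRAK4KO under CC-885, against 0.945 ± 0.048% under DMSO, and 0.503 ± 0.051% in WT under CC-885, against 1.01 ± 0.06% under DMSO. The 7 other elongation genes took 0.431 ± 0.014% in IRAK4KO under CC-885, against 0.583 ± 0.026% under DMSO, and 0.506 ± 0.007% in WT under CC-885, against 0.585 ± 0.036% under DMSO. Treated and untreated libraries did not overlap in the shares of the 46 initiation genes, EEF1A1 or the 7 other elongation genes. An exact two-sided permutation test of 3 against 3 libraries gave p = 0.1 for each, the smallest p this design allows, so none can pass a threshold of 0.05.

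Within the initiation share the roles differed. The 7 start selection genes took 0.293 ± 0.002% in IRAK4KO under CC-885, against 0.0883 ± 0.0033% under DMSO, and 0.247 ± 0.004% in WT under CC-885, against 0.0985 ± 0.0035% under DMSO (SD, n = 3 each). The 14 eIF3 genes took 0.364 ± 0.007% in IRAK4KO under CC-885, against 0.363 ± 0.007% under DMSO, and 0.401 ± 0.030% in WT under CC-885, against 0.406 ± 0.008% under DMSO, with overlapping libraries. Genes of cap binding and mRNA unwinding took 0.440 ± 0.005% in IRAK4KO under CC-885, against 0.369 ± 0.010% under DMSO, and 0.400 ± 0.010% in WT under CC-885, against 0.401 ± 0.015% under DMSO, overlapping in WT. The 4 genes of eIF5A and eIF6 took 0.0272 ± 0.0011% in IRAK4KO under CC-885, against 0.0408 ± 0.0018% under DMSO, and 0.0329 ± 0.0011% in WT under CC-885, against 0.0516 ± 0.0012% under DMSO.

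**Figure D4:**
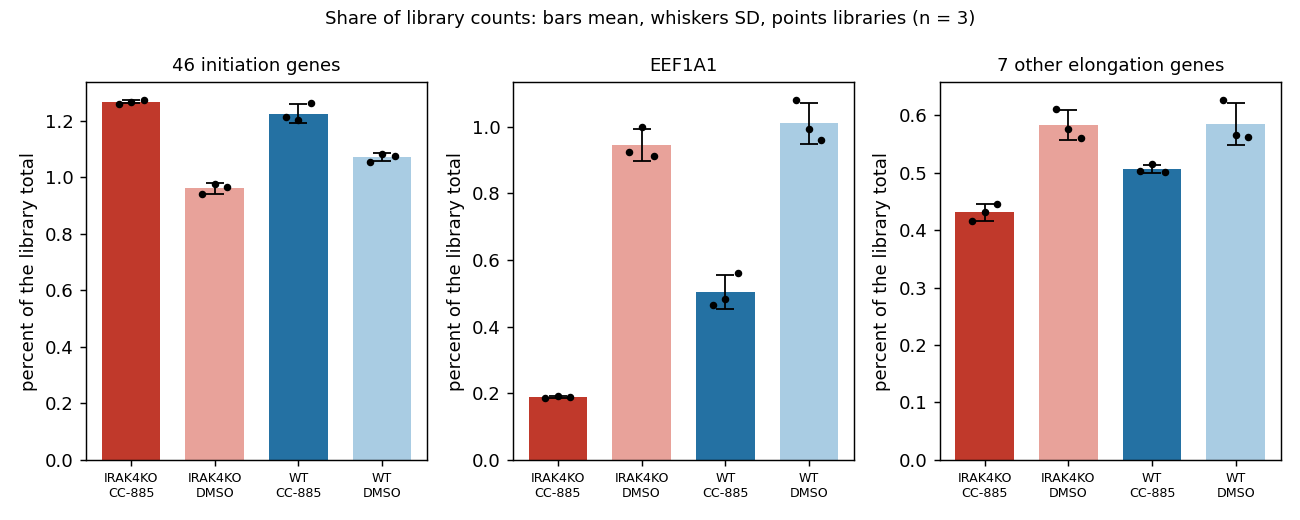
Share of the library total, in percent, held by the 46 initiation genes, by EEF1A1 and by the 7 other elongation genes. Bars are group means, whiskers are SD and points are the 3 libraries of a group. The initiation share, which includes EIF1 and EIF5, is higher and both elongation shares are lower under CC-885 in each genotype.

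Compared per length (CPM per kilobase of merged exons), EEF1A1 ranked 1 of the 54 in IRAK4KO and WT under DMSO and in WT under CC-885, and 4 in IRAK4KO under CC-885. It held 324 ± 6.03 CPM per kilobase in IRAK4KO under CC-885, against 1518 ± 88.7 under DMSO, and 874 ± 113 in WT under CC-885, against 1685 ± 118 under DMSO (SD, n = 3 each). EIF1 ranked 2 in IRAK4KO under CC-885 and 18 under DMSO, and 4 in WT under CC-885 and 18 under DMSO. It held 403 ± 13.7 CPM per kilobase in IRAK4KO under CC-885, against 58.4 ± 2.63 under DMSO. EEF2 ranked 1 in IRAK4KO under CC-885, at 645 ± 15.8 CPM per kilobase, and 2 in the other groups.

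Without CC-885, factor genes that differed between the genotypes were mostly lower in IRAK4KO, with EIF4E3 the main exception. Under DMSO, 3 of the 54 genes were called higher and 23 lower in IRAK4KO than in WT, against 21.3% and 28.4% of all tested genes (49.7% in either direction). Without WT replicate 3 under CC-885 the counts were 4 and 27. Leaving out any 1 library gave 6822 to 9260 calls over all tested genes, beside 7958 with all libraries. Of the 26 calls made with all libraries, 11 were lost under at least 1 alternative fit. The median log2 fold change was -0.15 for the 54 genes and -0.06 over all tested genes. This balance depends on the scaling: with upper-quartile factors, which moved the median of all genes by 0.12, 5 were called higher and 13 lower. Changes of 2-fold or more were limited to EIF4E3 upward and EEF1A2 downward (7.06% and 6.68% of all tested genes, 13.7% in either direction).

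EIF4E3, a member of the cap-binding eIF4E family (chromosome 3, 71675416 to 71754773, minus strand), measured 7.64, 7.90 and 7.13 CPM in IRAK4KO under DMSO, against 2.20, 2.17 and 2.20 CPM in WT under DMSO. Under CC-885 it measured 7.68, 7.47 and 7.20 CPM in IRAK4KO, against 2.35, 2.10 and 2.59 CPM in WT. The genotypes were separate under either treatment, by 1.78 ± 0.11 under DMSO (3.45-fold, adjusted p = 2.33e-09) and 1.67 ± 0.11 under CC-885 (3.18-fold, adjusted p = 3.42e-09). No response to CC-885 was called within a genotype, at -0.02 ± 0.10 in IRAK4KO (adjusted p = 0.857) and 0.10 ± 0.12 in WT (adjusted p = 0.467). EIF2D, which can deliver tRNA without GTP, was the next rise in IRAK4KO, by 0.35 ± 0.06 under DMSO (adjusted p = 0.000251) and 0.44 ± 0.06 under CC-885 (adjusted p = 1.86e-05). EIF3F was called higher under DMSO (0.22 ± 0.08, adjusted p = 0.0363), with overlapping groups, and lost the call without IRAK4KO replicate 1 (0.19) or 2 (0.22) under DMSO or WT replicate 2 (0.19) or 3 (0.18) under DMSO. The call was also lost with the library-name number as a block (0.16), and EIF3F stood at 0.10 in the prefix 51 libraries alone.

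EIF3A, the subunit that anchors the eIF3 scaffold (chromosome 10, 119033670 to 119080823, minus strand), measured 231, 273 and 271 CPM in IRAK4KO under DMSO, against 506, 494 and 513 CPM in WT under DMSO. Under CC-885 it measured 263, 250.3 and 255 CPM in IRAK4KO, against 459, 453 and 466 CPM in WT. The genotypes were separate under either treatment, with changes of -0.96 ± 0.06 under DMSO (adjusted p = 4.35e-09) and -0.84 ± 0.06 under CC-885 (adjusted p = 1.51e-08). EEF1A2 was lower in IRAK4KO than in WT at -1.005 ± 0.067 under DMSO (adjusted p = 5.57e-09) and at -1.36 ± 0.07 under CC-885 (adjusted p = 2.45e-10). EIF2S3 was lower at -0.70 ± 0.07 under DMSO (adjusted p = 3.19e-07) and at -1.30 ± 0.07 under CC-885 (adjusted p = 2.9e-10). EIF5A was lower at -0.48 ± 0.06 under DMSO (adjusted p = 4.19e-06) and at -0.32 ± 0.06 under CC-885 (adjusted p = 0.000144). EIF2B3 (-0.55 ± 0.07) and EIF5AL1 (-0.50 ± 0.09) completed the 6 largest falls under DMSO.

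Among the core factors under DMSO, EIF4G1 (-0.27 ± 0.06, adjusted p = 0.00139), EIF4E (-0.31 ± 0.09, adjusted p = 0.0131) and EIF2S1 (-0.33 ± 0.08, adjusted p = 0.00242) were called lower in IRAK4KO. The call of EIF4E was lost without IRAK4KO replicate 1 (-0.24) or WT replicate 2 (-0.24) under DMSO and with upper-quartile factors (-0.19). EIF4E stood at -0.19 in the prefix 51 libraries alone. With upper-quartile factors the EIF4G1 call was lost too (-0.14, adjusted p = 0.0571). EEF2 (-0.07 ± 0.06, adjusted p = 0.363), EIF2B5 (-0.07 ± 0.06, adjusted p = 0.309), EIF2S2 (-0.14 ± 0.08, adjusted p = 0.128) and EEF1A1 (-0.15 ± 0.08, adjusted p = 0.152) were not called. EIF2S2 was called without IRAK4KO replicate 2 under DMSO (-0.21) or WT replicate 3 under CC-885 (-0.14). EEF1A1 was called without WT replicate 3 under CC-885 (-0.15). In the prefix 51 libraries alone, which keep only WT replicate 1 under DMSO, EEF1A1 stood at -0.24. Over all tested genes, 21.3% were called higher and 28.4% lower in IRAK4KO under DMSO. By role, the calls were 1 higher and 7 lower of 14 for eIF3, 0 and 3 of 7 for start selection, 0 and 3 of 4 for eIF5A and eIF6, 1 and 5 of 11 for cap binding and mRNA unwinding, 1 and 2 of 5 for eIF2 and the other carriers, 0 and 1 of 5 for eIF2B, and 0 and 2 of 8 for elongation.

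**Figure D5:**
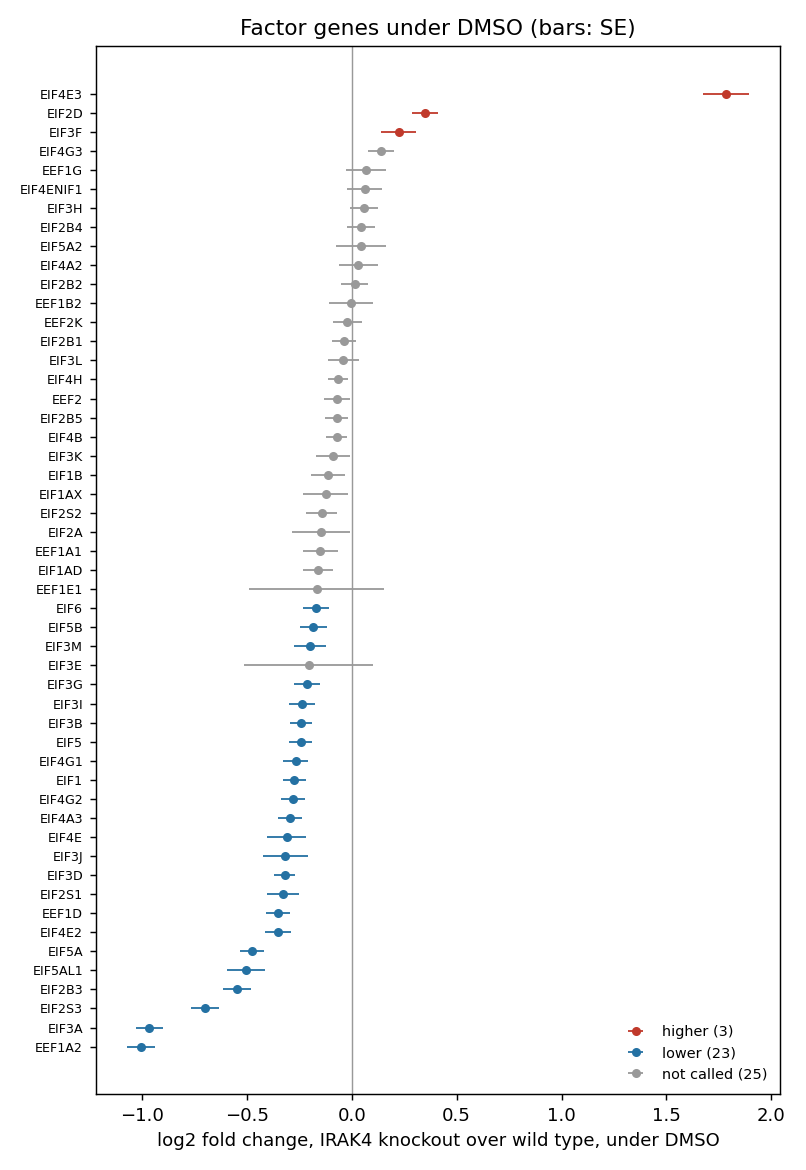
Log2 fold change (points) with SE (bars) of IRAK4KO over WT under DMSO for 51 factor genes, sorted by value. EIF3C, EIF3CL and EIF1AY are not drawn. EIF4E3 stands far to the right at 1.78, and most other called genes lie left of 0, down to EEF1A2 at -1.005.

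Under CC-885, 16 genes were called higher and 17 lower in IRAK4KO than in WT, against 27.8% and 30.8% of all tested genes (58.6% in either direction). Without WT replicate 3 under CC-885 the counts were 20 and 19. Leaving out any 1 library gave 8444 to 9845 calls over all tested genes, beside 9384 with all libraries. Changes of 2-fold or more numbered 1 upward and 4 downward (5.83% and 9.63% of all tested genes, 15.5% in either direction). Among the 4 was the low-count gene EEF1E1 (-1.50), which stood at -0.94, short of 2-fold, without WT replicate 3 under CC-885. Elongation genes took part on the low side: 0 of 8 were called higher and 6 lower. EEF1A1 was lower at -1.43 ± 0.09 (0.371 of the WT level, adjusted p = 1.43e-09) and EEF2K at -0.89 ± 0.07 (adjusted p = 6.41e-08). EEF2 (-0.28 ± 0.06, adjusted p = 0.000888) and EEF1D (-0.37 ± 0.06, adjusted p = 3.15e-05) were also lower. Of the eIF2B subunits, 3 of 5 were called higher and 0 lower, among them EIF2B4 (0.48 ± 0.07, adjusted p = 1.46e-05) and EIF2B5 (0.39 ± 0.06, adjusted p = 2.17e-05). EIF5 (0.37 ± 0.06, adjusted p = 3.62e-05) and EIF5A2 (0.43 ± 0.12, adjusted p = 0.00427) were higher as well.

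Of the other core initiation factors under CC-885, EIF4G1 was called higher in IRAK4KO than in WT (0.17 ± 0.06, adjusted p = 0.0225) but not with no low-count filter (0.14, adjusted p = 0.0674) or without WT replicate 2 (0.17) or IRAK4KO replicate 2 (0.17) or 3 (0.16) under CC-885. EIF2S1 was called higher at 0.19 ± 0.08 (adjusted p = 0.0475) with overlapping groups. Its call was lost without any single library other than WT replicate 3 under CC-885 and IRAK4KO replicate 1 under DMSO, with values of 0.13 to 0.20, and it stood at 0.30 without WT replicate 3 under CC-885. No low-count filter (0.16) and a fit of only the groups compared (0.19) also lost it. EIF2S2 (-0.12 ± 0.07, adjusted p = 0.200) and EIF4E (-0.05 ± 0.09, adjusted p = 0.690) were not called.

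Whether CC-885 acted differently in the 2 genotypes was asked with the interaction, the response in IRAK4KO minus the response in WT. Of the 54 genes, 14 had a higher and 5 a lower response in IRAK4KO, against 17.9% and 16.8% of all tested genes (34.7% in either direction). Upper-quartile scaling gave 13 and 9. The median difference was 0.09 for the 54 genes and -0.01 over all tested genes. This test shares its libraries with the comparisons above. EIF2B3 (0.68 ± 0.09, adjusted p = 5.75e-05), EIF5 (0.61 ± 0.08, adjusted p = 3.49e-05), EIF2S1 (0.52 ± 0.11, adjusted p = 0.00188), EIF4G2 (0.51 ± 0.08, adjusted p = 0.00022), EIF3I (0.50 ± 0.09, adjusted p = 0.000469) and EIF3G (0.49 ± 0.09, adjusted p = 0.000548) differed most upward. EIF1 differed by 0.48 ± 0.08 (adjusted p = 0.000231) and was named after its values were seen. Of the 5 eIF2B subunits, 4 were called higher and 0 lower. The call of EIF2B1 (0.25, adjusted p = 0.0256) was lost without any of WT replicate 2 (0.23) or IRAK4KO replicate 3 (0.21) under DMSO, and WT replicate 1 (0.23) or IRAK4KO replicate 2 (0.24) or 3 (0.24) under CC-885.

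On the low side of the interaction were EEF1A1 (-1.28 ± 0.12, adjusted p = 2.09e-06), EEF2K (-0.87 ± 0.10, adjusted p = 1.72e-05), EIF2S3 (-0.60 ± 0.09, adjusted p = 0.000166), EIF3F (-0.48 ± 0.12, adjusted p = 0.00504) and EEF1A2 (-0.35 ± 0.10, adjusted p = 0.00955). EEF1A1 was the only gene of the 54 whose interaction was called and reached 2-fold (1.61% of all tested genes were called at least 2-fold higher and 4.40% lower, 6.01% in either direction). EIF2S2 showed no call (0.03 ± 0.11, adjusted p = 0.865), with a 1.15 rise in IRAK4KO and a 1.12 rise in WT. EIF4E (0.26 ± 0.13, adjusted p = 0.144), EIF5A (0.15 ± 0.08, adjusted p = 0.159), EIF3A (0.12 ± 0.09, adjusted p = 0.306) and EEF2 (-0.21 ± 0.09, adjusted p = 0.0671) were not called either. Without WT replicate 3 under CC-885, 19 genes were called higher and 5 lower. The calls gained were EIF5A2 (0.54, adjusted p = 0.00290), EIF3J (0.53, adjusted p = 0.000306), EIF2A (0.42, adjusted p = 0.000199), EIF4E (0.38, adjusted p = 0.00664) and EIF3M (0.26, adjusted p = 0.00684). With the library-name prefix as a covariate EIF4E was called as well (0.26, adjusted p = 0.0401). The EEF2 interaction was called in 6 of the 21 alternatives: upper-quartile factors (-0.29), library size only (-0.26), DESeq2 (-0.22), no low-count filter (-0.30), the prefix covariate (-0.22) and without WT replicate 1 under DMSO (-0.27, adjusted p = 0.0201). It stood at -0.083 in the prefix 51 libraries alone.

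Regulators of these factors outside the 54 were followed as a list of 39 genes, chosen with earlier results of these data known. Under CC-885, 24 of the 39 were called higher and 9 lower in IRAK4KO, and 20 were called higher and 10 lower in WT. The shares over all tested genes were 38.9% higher and 40.0% lower in IRAK4KO, and 35.7% higher and 36.6% lower in WT. PPP1R15A, the stress-induced subunit that directs a phosphatase to eIF2 alpha, rose by 5.64 ± 0.07 in IRAK4KO (adjusted p = 4.08e-18) and by 4.81 ± 0.07 in WT (adjusted p = 2.62e-17). It measured 1399.7, 1364 and 1425 CPM in IRAK4KO under CC-885, against 29.5, 27.3 and 26.99 CPM under DMSO. PPP1R15B, the constitutive counterpart, rose by 1.40 ± 0.06 in IRAK4KO and 1.30 ± 0.06 in WT. ETF1, the partner of GSPT1 in termination, rose by 1.80 ± 0.06 in IRAK4KO (adjusted p = 3.43e-13).

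The largest falls on this list were LARP1, which binds TOP mRNAs, at -1.37 ± 0.08 in IRAK4KO and -0.82 ± 0.08 in WT, and ABCE1, the ribosome recycling factor, at -0.93 ± 0.10 in IRAK4KO and -1.14 ± 0.10 in WT. PDCD4, an inhibitor of the eIF4A helicase, fell by 0.72 ± 0.08 in IRAK4KO. DPH7, an enzyme of the diphthamide modification of eEF2, fell by 0.65 ± 0.07 in WT. EIF2AK2, the kinase PKR that phosphorylates eIF2 alpha, rose by 1.23 ± 0.12 in WT (adjusted p = 4.3e-07). It was not called in IRAK4KO (0.12 ± 0.12). It stood lower in IRAK4KO than in WT under CC-885 at -2.01 ± 0.13 (adjusted p = 9.55e-09), and its interaction was -1.11 ± 0.17 (adjusted p = 0.000276).

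Between genotypes under DMSO, 6 of the 39 regulators were called higher and 18 lower in IRAK4KO, against 21.3% and 28.4% of all tested genes. PAIP1, which links the polyA-binding protein to initiation factors, was lower at -1.27 ± 0.06 (adjusted p = 1.92e-10), PDCD4 at -1.01 ± 0.08 (adjusted p = 3.17e-08) and EIF4EBP2, a repressor of eIF4E, at -0.93 ± 0.06 (adjusted p = 3.28e-09). PAIP2B, an inhibitor of the polyA-binding protein, was higher by 1.53 ± 0.23 (adjusted p = 5.22e-05), CTIF, a factor for mRNAs bound by the nuclear cap complex, by 0.53 ± 0.07 and the kinase EIF2AK3 by 0.40 ± 0.08. Under CC-885, 13 were called higher and 12 lower in IRAK4KO than in WT, against 27.8% and 30.8% of all tested genes. PAIP2B (1.13 ± 0.23), the ribosomal S6 kinase RPS6KB1 (0.75 ± 0.07) and PPP1R15A (0.68 ± 0.06) were the largest rises there, and PDCD4 (-1.79 ± 0.08) and PAIP1 (-1.10 ± 0.06) followed EIF2AK2 among the falls. The interaction was called higher for 12 and lower for 5, against 17.9% and 16.8% of all tested genes. PPP1R15A (0.83 ± 0.08), ETF1 (0.81 ± 0.09) and the second S6 kinase RPS6KB2 (0.57 ± 0.13) led upward, and PDCD4 (-0.78 ± 0.11) and EIF2AK3 (-0.77 ± 0.11) followed EIF2AK2 downward. GSPT1 transcript, 1 of the 39, was higher under CC-885 by 0.72 ± 0.05 in IRAK4KO and by 0.18 ± 0.05 in WT, and protein levels were not analysed here.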

How the data were processed

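Raw counts per gene symbol were deposited by the authors for 12 libraries, with no normalization. Per the submitters' processing notes, FastQC 0.11.2, HISAT2 2.0.5, featureCounts 1.5.2 and the human build GRCh38 were used, while the extraction protocol in the labels names a mouse build. The symbols are human. Strand setting and treatment of reads with several matches were not given in the sources used here. Libraries are polyA-selected and paired-end, per the labels' protocols.

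Counts were filtered with filterByExpr by group and scaled by TMM factors, and a robust quasi-likelihood model (edgeR 4.0.16, R 4.3.3) with 1 coefficient per group was fitted to all 12 libraries. Of 30017 symbols, 7380 had no count and 16010 were tested. P-values were adjusted over all of them by Benjamini-Hochberg, and a gene was called under 0.05. SE was derived from the F statistic. The biological coefficient of variation was 0.0899. On simulated data for CC-885 against DMSO in WT (15701 genes), 79% of genes changed 1.5-fold and 91% of those changed 2-fold were recovered. Of 178 calls, 8 were false. Only 200 genes were changed there, evenly up and down, in treated WT libraries, with the same dispersion for every gene. In the real contrast 72.3% of tested genes were called, so these rates need not hold for it. Alternatives used other scalings, DESeq2 1.42.0, no filter, blocks, library-name prefixes and left-out libraries. Paralog ratios used a prior count of 0.5. Coordinates are from GENCODE v29 and promoter windows from RefSeq (the first listed window is printed; motifs were searched in all windows of a gene, on both strands).

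The 54 genes and all lists were chosen with earlier results of these data known. Named genes are the core factors and, in each comparison, the 6 largest called rises and 6 largest called falls among those at 5 CPM or more in the higher group. Other members are named within their role after their values were seen. For regulators, 3 rises and 3 falls per comparison are named, beside GSPT1.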

Additional observations from a re-analysis of the deposited data

Results flagged for a closer look

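For 19 of the 54 genes, the test of the difference between the genotypes in their response to CC-885 passed (edgeR interaction, adjusted p under 0.05 over all genes tested). This is 35.2% of the 54, beside 34.7% of all tested genes, so the count is not particular to these genes. The response was more positive in IRAK4KO than in WT for EIF2B3 (0.68), EIF5 (0.61), EIF2S1 (0.52), EIF4G2 (0.51), EIF3I (0.50), EIF3G (0.49), EIF1 (0.48), EIF2B5 (0.46), EIF2B4 (0.44), EIF4G1 (0.43), EIF3D (0.39), EIF4A3 (0.38), EIF5B (0.37) and EIF2B1 (0.25). It was more negative in IRAK4KO than in WT for EEF1A1 (-1.28), EEF2K (-0.87), EIF2S3 (-0.60), EIF3F (-0.48) and EEF1A2 (-0.35). All values are log2 differences. The rule for named genes picked 13 of the 19. EIF1, EIF2B4, EIF3D, EIF4A3, EIF5B and EIF2B1 fall outside it and were named here after their values were seen. EIF5 and EIF2B5 rose in both genotypes and further in IRAK4KO, while EEF1A1, EEF2K, EIF2S3, EIF3F and EEF1A2 fell in both and further in IRAK4KO. EIF4G1 fell in WT and was not called in IRAK4KO. EIF3F is the least certain in WT, where its groups overlapped. A difference between clones and an effect of the knockout cannot be told apart here.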

How the results depend on the processing

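Of 152 calls made for the 54 genes over the 5 comparisons, 124 were kept under every alternative run (22 of them, 21 for the interaction). The other 28 were lost under at least 1, and 0 reversed sign. Between genotypes, 11 of 26 calls were lost under DMSO and 8 of 33 under CC-885. For CC-885 against DMSO, 4 of 41 were lost in IRAK4KO and 4 of 33 in WT, and for the interaction 1 of 19. With upper-quartile factors, which moved the median of all genes by -0.15 in IRAK4KO under CC-885 and by 0.12 between genotypes under DMSO, 5 genes were called higher and 13 lower between genotypes under DMSO and 9 lower in the interaction. The interaction gave 9 lower with library size only and 8 lower with no low-count filter. With upper-quartile factors, 19 were called higher and 25 lower in IRAK4KO, and 13 higher and 25 lower in WT. Leaving out 1 library gave 2 to 4 higher and 18 to 27 lower between genotypes under DMSO and 13 to 19 higher and 5 to 6 lower in the interaction. Calls over all tested genes moved as well, over 6822 to 9260 and 4715 to 6872, beside 7958 and 5562 with all libraries. Shares over all tested genes are not given for each alternative fit, so these shifts in counts cannot be called particular to the 54.

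Genes near 0 that were not called changed sign. EEF2 in WT became -0.055 (upper-quartile), -0.040 (library size only) and -0.13 (prefix 51 libraries only), and ranged over -0.021 to 0.068 without single libraries. Between genotypes under DMSO, EEF2 became 0.053 and EIF2B5 0.052 with upper-quartile factors. EIF4G1 in IRAK4KO became -0.074 (upper-quartile) and -0.025 (library size only). EIF4E between genotypes under CC-885 became 0.0012 (upper-quartile), 0.0055 (replicate block by library-name number), 0.029 (prefix covariate) and 0.064 (prefix 51 only), and ranged over -0.11 to 0.068 without single libraries. The EIF2S2 interaction became -0.047 (upper-quartile), -0.011 (library size only) and -0.055 (no filter), and ranged over -0.033 to 0.13. EIF3A in IRAK4KO became 0.010 (replicate block by library-name number), 0.0018 (prefix covariate) and 0.016 (prefix 51 only), and ranged over -0.081 to 0.026. The cause was not tested.

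Libraries with the same title number did not deviate together (correlations of -0.034 to 0.073), so the numbers are not taken to pair samples. With the title number as replicate block, 22 genes were called higher and 19 lower in IRAK4KO, 14 higher and 20 lower in WT, and 3 higher and 23 lower between genotypes under DMSO. All 3 IRAK4KO libraries under CC-885 carry the library-name prefix 51. Counting error is small at these depths except for EEF1E1 (1756 counts) and EIF4E3 (3012 counts).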
